A study of Mus musculus with 6 samples.

Results

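The genes described here encode the RNAs of the mitochondrial genome and the nuclear subunits of the respiratory chain, measured by Drop-seq in endothelium-enriched mouse retinas. Members were chosen by name: every symbol starting with mt-, and the nuclear symbols that begin with Nduf followed by a, b, c, s or v and a number, Sdha to Sdhd, those beginning with Uqcr or Atp5, and Cox4 to Cox8 symbols that carry an a, b or c. This gave 113 of the 20822 genes of the table: 2 mitochondrial rRNAs, 13 mitochondrial mRNAs, 19 mitochondrial tRNAs and 79 nuclear entries, of which 36 belong to complex I, 4 to complex II, 8 to complex III, 13 to complex IV and 18 to complex V. The naming rule used no measured value, but earlier results of these data were known when it was chosen.

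The cells came from retinas of mice put through oxygen-induced retinopathy (OIR), in which high oxygen removes retinal capillaries and the return to room air drives new vessel growth. Retinas were taken at postnatal day 14 from C57BL/6J mice (eNOS+/+) and from mice homozygous for a Nos3 knockout allele on the C57BL/6J background (eNOS-/-), 3 to 5 retinas were pooled for each replicate, and CD31 beads enriched the endothelial cells (ECs). There were 3 replicates of each genotype, with 3031 cells from eNOS+/+ and 5913 from eNOS-/- retinas, 8944 in all. The annotation that the authors deposited with the cells names 10 cell types, and its plain label "ECs" is called Structural ECs here to keep it apart from Tip ECs and Proliferative ECs.

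The respiratory chain moves electrons from NADH and succinate to oxygen through complexes I to IV and uses the proton gradient that this builds to make ATP at complex V. Its subunits come from both genomes: the mitochondrial DNA encodes core subunits of complexes I, III, IV and V together with its own rRNAs and tRNAs, all cut from long transcripts of both strands, while complex II and every other subunit are nuclear. Endothelial cells draw much of their ATP from glycolysis, and photoreceptors are among the cells richest in mitochondria.

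UMIs (unique molecular identifiers, each standing for 1 captured RNA molecule) were summed per cell type and replicate, and each sum was scaled to counts per 1000000 UMIs (CPM). The 5925 ECs gave between 488367 and 2425603 UMIs per replicate, and the median EC held between 418 and 1097.5 UMIs. A sum of 8 EC markers lay between 6561 and 7881 CPM in the 6 EC sums. The EC sum of eNOS-/- replicate 3 also held 2214 CPM of 6 mural cell markers against 9.7 to 92.4 CPM in the other 5, and 5 haemoglobin and erythroid genes gave 24.2 CPM in eNOS+/+ replicate 1 against 2234 to 8529 CPM elsewhere. Rod and neuron markers were highest in eNOS-/- replicate 2, with 568.5 and 164.5 CPM against 53.2 to 207 and 2.05 to 21.8 CPM. A list of 5 B lineage markers did not overlap between the genotypes, with 22.9 to 98.2 CPM in eNOS+/+ and 121 to 164 CPM in eNOS-/- EC sums, and these UMIs came from Structural ECs (47.9 to 199.6 against 259 to 307 CPM), while Tip and Proliferative ECs had 0 to 7.01 CPM. The part of these markers in the differences below was not tested. Libraries of different replicates shared 3 barcodes, none of them within a genotype. Nos3, the gene named in the knockout, had 19.4, 36.6 and 23.6 CPM in the EC sums of eNOS+/+ replicates 1 to 3 and 21.2, 16.1 and 32.8 CPM in those of eNOS-/- replicates 1 to 3, from 16 to 49 UMIs each. These levels overlapped. Drop-seq counts the 3′ end of a transcript and the sources used here do not name the deleted part of the allele, so the labels were not checked by these values, and every direction below is drawn between the libraries as labelled.

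Drop-seq captures RNA by its poly(A) tail or by runs of A inside it, so the ends and the A-rich stretches of the mitochondrial RNAs bear on what was counted. The sequences of this paragraph were read from GENCODE vM21 transcripts on GRCm38. The large rRNA, mt-Rnr2, lies at chrM 1094 to 2675 on the plus strand, is 1582 bases long and is 38.2% A. The stretch around its longest run of A, at chrM:1462-1520, is shown with the run of 7 in capitals.
mt-Rnr2: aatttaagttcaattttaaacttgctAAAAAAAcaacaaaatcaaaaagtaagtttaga

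Mitochondrial mRNAs often end inside the stop codon, which the poly(A) tail then completes. The last 24 annotated bases of 6 of the mRNA genes are shown for that reason, with the complete or incomplete stop codon in capitals. As annotated, mt-Co3, mt-Nd4 and mt-Cytb end with a lone T, while mt-Co2, mt-Atp8 and mt-Nd6 carry the whole codon. Where the RNAs themselves end was not measured, and an annotated end need not carry a poly(A) tail. The annotated end of mt-Atp8 lies inside mt-Atp6.
mt-Co2: aactgatctgcttcaataattTAA
mt-Atp8: cctcattcattaccccaacaaTAA
mt-Co3: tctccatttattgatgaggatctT
mt-Nd4: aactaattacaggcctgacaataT
mt-Cytb: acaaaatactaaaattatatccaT
mt-Nd6: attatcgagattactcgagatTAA

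The genes mt-Atp8 and mt-Atp6, both for complex V, overlap by 43 bases on the plus strand, in capitals in the stretch chrM:7915-7981, so a read confined to these bases cannot be given to one of them.
mt-Atp8 and mt-Atp6: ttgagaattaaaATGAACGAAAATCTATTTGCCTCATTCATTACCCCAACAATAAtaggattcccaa

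In ECs the mitochondrial mRNAs took up a smaller share of UMIs in the eNOS-/- libraries, and the nuclear subunits did not. The 13 mRNAs held 1.22, 1.69 and 1.68% of EC UMIs in eNOS+/+ replicates 1 to 3 and 1.02, 1.14 and 0.96% in eNOS-/- replicates 1 to 3. Every eNOS-/- library lay below every eNOS+/+ library, with means of 1.53% ± 0.27 and 1.04% ± 0.09 (SD, n = 3 each). The nuclear members held 1.97, 2.27 and 2.07% of UMIs against 1.88, 2.11 and 2.5%, and these ranges overlapped. The 2 rRNAs went another way, with 0.65, 0.96 and 0.47% in eNOS+/+ and 0.99, 1.55 and 0.40% in eNOS-/- libraries. Both the highest and the lowest rRNA share belonged to the eNOS-/- group. No test was made on these summed shares.

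**Figure D1:**
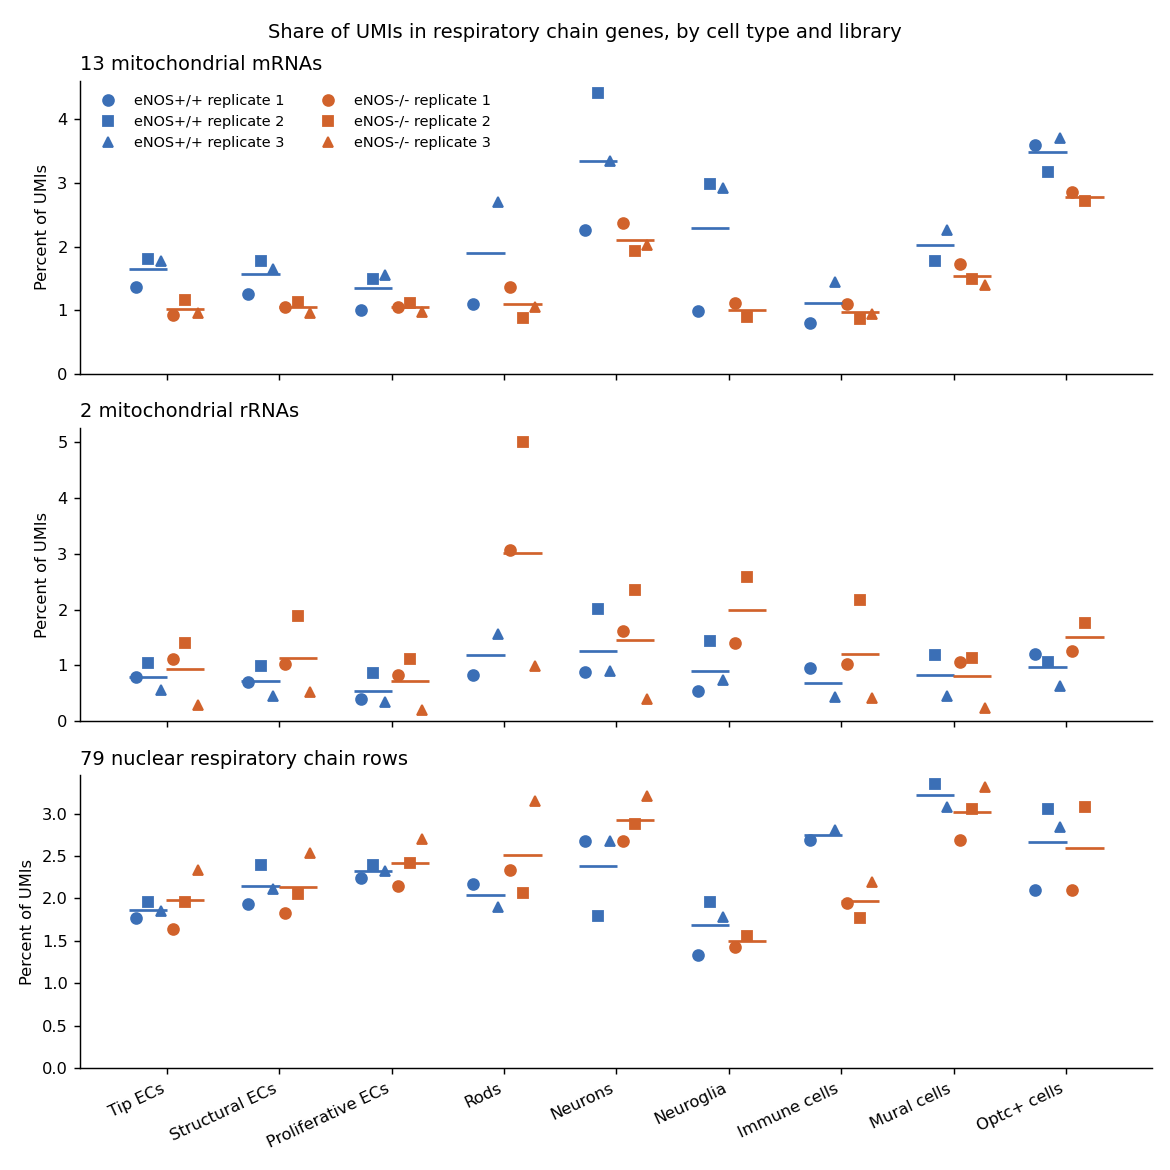
Percent of the UMIs of each cell type sum (vertical axes) held by the 13 mitochondrial mRNAs, the 2 mitochondrial rRNAs and the 79 nuclear entries, for 9 cell types. Points are libraries with at least 10 cells of the type, lines are the means of 2 or more libraries of a genotype. The mRNA points of eNOS-/- ECs lie between 0.96 and 1.14% when all ECs are summed, below the 1.22 to 1.69% of eNOS+/+ ECs, while the nuclear points overlap.

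Among the EC subtypes, Tip ECs, the migrating cells at the front of a growing vessel, had mitochondrial mRNA shares of 1.37, 1.80 and 1.77% in eNOS+/+ and 0.93, 1.16 and 0.95% in eNOS-/- libraries. The Structural ECs gave 1.25, 1.78 and 1.66% against 1.05, 1.13 and 0.95%. In Proliferative ECs the values were 1.01, 1.49 and 1.56% against 1.05, 1.12 and 0.97%. The genotypes did not overlap in Tip or Structural ECs, and they overlapped in Proliferative ECs through eNOS+/+ replicate 1, the lowest of its group in all 3 subtypes. That replicate is also the one with the fewest erythroid UMIs in its EC sum, and whether anything it shares with that measure bears on its mRNA share was not tested.

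The makeup of the mitochondrial UMIs differed widely between libraries of one genotype. In ECs mt-Rnr2 alone gave 31.3, 32.5 and 19.5% of mitochondrial UMIs in the eNOS+/+ and 44.9, 54.2 and 25% in the eNOS-/- libraries, while the mRNAs gave 63.2, 62.4 and 75.5% against 49.6, 41.6 and 67.2%. The ratio of rRNA to mRNA UMIs was 0.54, 0.57 and 0.28 in eNOS+/+ and 0.96, 1.36 and 0.42 in eNOS-/- libraries. It was lowest in replicate 3 of each genotype. Because of this split, a single percent of mitochondrial UMIs per cell did not follow the mRNAs: its median over ECs was 1.61, 2.76 and 2.14% in eNOS+/+ and 2.05, 3.19 and 1.30% in eNOS-/- replicates. The authors removed cells above 10%, and the largest value left was 9.99%. In eNOS-/- replicate 2, 7.50% of ECs still exceeded 9%, against 0.55 to 2.08% in the other 5.

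**Figure D2:**
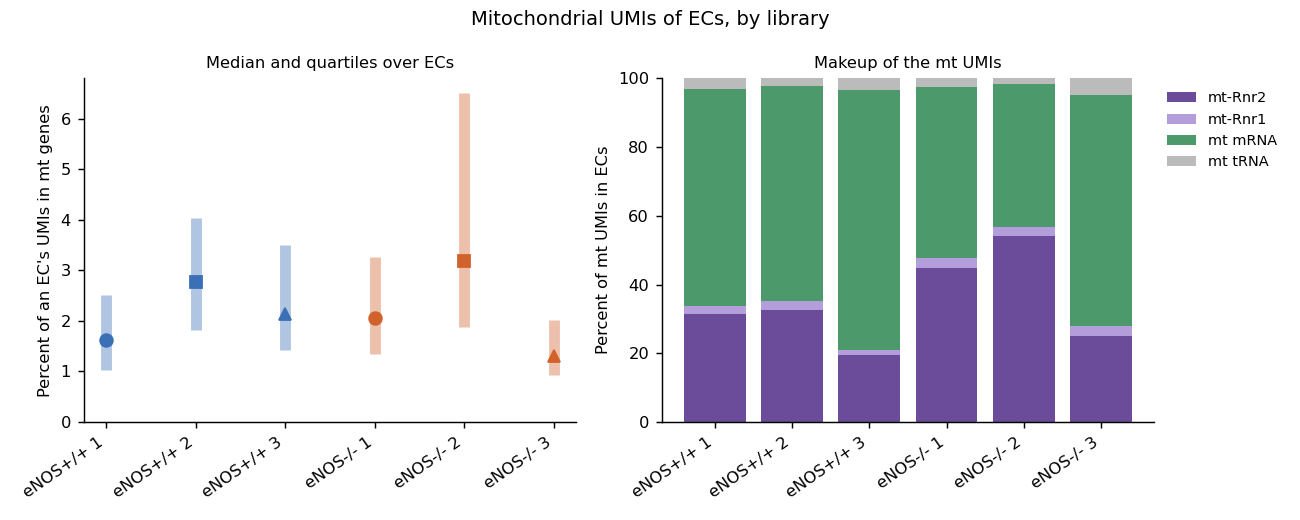
Left, the percent of each EC's UMIs in mitochondrial genes, as the median (point) and quartiles (bar) over the ECs of each library. Right, the makeup of the summed mitochondrial UMIs of ECs in percent. The medians run from 1.30 to 3.19%, both in eNOS-/- libraries, and mt-Rnr2 takes 54.2% of the mitochondrial UMIs of eNOS-/- replicate 2 against 19.5% in eNOS+/+ replicate 3.

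Gene by gene, the genotypes were compared with edgeR's quasi-likelihood test on the summed UMIs, with p-values adjusted over all genes tested by the Benjamini-Hochberg method. In all ECs 93 members passed the filter on low counts and 20 did not: 15 tRNA entries, Atp5o.1 with 209 UMIs, and Cox6b2, Cox7a1, Cox7b2 and Cox8b with 34, 10, 2 and 1 UMIs. Of 9483 genes tested 0.0211% had an adjusted p under 0.05, and no member was among them. DESeq2 called none of the mitochondrial mRNAs or rRNAs or of the nuclear members either. At an unadjusted p under 0.05, which 5.78% of all tested genes reached, 8 of the 13 mitochondrial mRNAs had lower values and none had higher values in eNOS-/- libraries. Their median log2 fold change was -0.53 beside 0.0078 for all genes tested, with 11 of 13 negative, and it lay between -0.68 and -0.45 in the alternative fits. The mitochondrial mRNAs are cut from long shared transcripts and were counted in the same libraries. They are not independent of each other, so their counts beside the shares of all genes, here and in the subtypes, are no test. The libraries are pools from separate sets of retinas, and the p-values measure the spread between these pools.

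Among the 13 mRNA genes of the mitochondria, mt-Atp8, mt-Atp6, mt-Co2 and mt-Co3 had the largest differences. The overlapping genes mt-Atp8 and mt-Atp6 encode membrane subunits of the ATP synthase, and mt-Co2 and mt-Co3 encode core subunits of cytochrome c oxidase. The level of mt-Co2 in EC sums was 901, 2299 and 1969 CPM in eNOS+/+ and 881, 707 and 993 CPM in eNOS-/- replicates. Its eNOS+/+ replicate 1 lay among the eNOS-/- libraries, so the groups overlapped, and the log2 fold change was -1.01 (SE 0.30, adjusted p = 0.73 by edgeR). For mt-Atp8 the levels were 279, 754 and 355 CPM against 244, 213 and 236 CPM. Here the groups did not overlap, although eNOS+/+ replicate 2 stood far above the rest, and the log2 fold change was -1.0 (SE 0.29, adjusted p = 0.73). The levels of mt-Atp6 were 635, 1295 and 1275 CPM against 595, 693 and 612 CPM, a log2 fold change of -0.76 (SE 0.26). Those of mt-Co3 were 1116, 2279 and 2325 CPM against 1200, 1298 and 950 CPM, with -0.74 (SE 0.27). Both lay above the eNOS-/- range in eNOS+/+ replicates 2 and 3 only. With no filter on low counts the adjusted p of mt-Atp8 was 0.00682 and that of mt-Co2 0.0128, and over 13 alternative fits the adjusted p ran from 0.00682 to 0.9996 for mt-Atp8 and from 0.0128 to 0.9996 for mt-Co2. More genes were called with no filter, here and in the subtypes, as counted at the end.

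The complex I mRNAs divided. For mt-Nd4, a proton-pumping subunit, the EC levels were 1125, 1104 and 1337 CPM in eNOS+/+ and 657, 811 and 778 CPM in eNOS-/- replicates. All eNOS-/- libraries lay below all eNOS+/+ libraries, with a log2 fold change of -0.68 (SE 0.20, adjusted p = 0.751). The levels of mt-Nd6, the mRNA of the other strand, were 1239, 1077 and 1290 CPM against 932, 925 and 647 CPM, also without overlap and with a log2 fold change of -0.53. The log2 fold changes of mt-Nd3, mt-Nd1 and mt-Nd2 were -0.53, -0.43 and -0.38, and their groups overlapped. By contrast mt-Nd5 had 892, 631 and 726 CPM against 929, 1012 and 453 CPM, a log2 fold change of 0.08, and mt-Nd4l, at 10.5 to 23.0 CPM, had 0.03. For these last mRNAs the sign turned in some alternative fits. The genes mt-Nd5 and mt-Nd6 share 14 bases on opposite strands. Whether the counting used strand is not stated, so reads from RNA of the plus strand may have been counted over the whole of mt-Nd6. The values of mt-Nd6 are uncertain for that reason, here and in the EC subtypes.

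The remaining mRNAs of the chain were mt-Cytb of complex III, with 2150, 3679 and 3205 CPM in eNOS+/+ and 1858, 2260 and 2168 CPM in eNOS-/- EC sums and a log2 fold change of -0.53, and mt-Co1 of complex IV, with 795, 472 and 585 CPM against 564, 553 and 436 CPM and a log2 fold change of -0.26. Both overlapped. Counted over the whole chain, mt-Atp8, mt-Nd4 and mt-Nd6 were the 3 mRNAs whose groups did not overlap and were lower in eNOS-/- libraries, a pattern held by 5.00% of all tested genes. No member was higher without overlap in eNOS-/- libraries, against 5.39% of all tested genes.

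The rRNAs did not go with the mRNAs. The levels of mt-Rnr2 were 6051, 8786 and 4336 CPM in eNOS+/+ and 9250, 14786 and 3557 CPM in eNOS-/- EC sums. Its highest and lowest libraries were both eNOS-/-, and the log2 fold change was 0.52 (SE 0.39). The small rRNA, mt-Rnr1, had 484, 763 and 331 CPM against 602, 714 and 416 CPM and a log2 fold change of 0.15. Neither had an adjusted p under 0.05 in all ECs, as fitted or in the alternatives. In Proliferative ECs mt-Rnr2 passed the threshold without eNOS-/- replicate 3, with a log2 fold change of 0.92 (adjusted p = 0.0284, range over 13 alternative fits 0.0284 to 0.9999). That fit called 73 genes, against 1 as first fitted.

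In Tip ECs the genotypes were apart in more of the mRNAs. Of 5510 genes tested 0.0181% had an adjusted p under 0.05, none of them a member, and DESeq2 called no mitochondrial mRNA and no nuclear member. Of the 12 mitochondrial mRNAs tested (mt-Nd4l did not pass the filter) all 12 had negative log2 fold changes, 9 of them with an unadjusted p under 0.05 against 4.95% of all genes. In 10 of the 12 every eNOS-/- library lay below every eNOS+/+ library, a pattern held by 5.41% of all tested genes. Since these mRNAs are not independent of each other, the 10 are not 10 separate results. The median log2 fold change was -0.70 beside 0.0046 for all genes.

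In Tip ECs mt-Co2 had 1148, 2671 and 2169 CPM in eNOS+/+ and 941, 824 and 996 CPM in eNOS-/- replicates, means of 1996 ± 776 and 921 ± 88 (SD, n = 3 each). The log2 fold change was -1.12 (SE 0.27, adjusted p = 0.205). For mt-Atp8 the levels were 286, 737 and 387 CPM against 191, 201 and 203 CPM, with a log2 fold change of -1.22 (SE 0.29, adjusted p = 0.205). In both genes the eNOS-/- libraries lay close together and the eNOS+/+ libraries spread widely above them. Without eNOS+/+ replicate 1 both passed the threshold in Tip ECs, mt-Co2 at -1.38 (adjusted p = 0.0189) and mt-Atp8 at -1.46 (adjusted p = 0.0234). That replicate is the eNOS+/+ library nearest to the eNOS-/- values in both genes. Leaving out 1 replicate at a time gave 0 to 25 called genes in Tip ECs, against 1 as first fitted. With no filter on low counts mt-Atp8 passed the threshold as well, at -1.17 (adjusted p = 0.0473). Over 13 alternative fits the adjusted p in Tip ECs ran from 0.0189 to 1 for mt-Co2 and from 0.0234 to 0.9999 for mt-Atp8.

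The other Tip EC mRNAs without overlap were those of mt-Co3 with a log2 fold change of -0.94, mt-Atp6 with -0.85, mt-Nd3 with -0.78, mt-Nd4 with -0.74, mt-Nd1 with -0.65, mt-Cytb with -0.64, mt-Nd6 with -0.59 and mt-Nd2 with -0.49. Their eNOS+/+ and eNOS-/- levels were, for example, 1235, 1170 and 1391 against 574, 861 and 849 CPM for mt-Nd4. The 2 that overlapped were mt-Nd5, with 1019, 684 and 743 against 846, 971 and 540 CPM, and mt-Co1, with 811, 529 and 646 against 495, 637 and 568 CPM. In the same cells mt-Rnr2 had 7410, 9535 and 5092 CPM in eNOS+/+ and 10442, 13251 and 2609 CPM in eNOS-/- replicates, a range that enclosed the eNOS+/+ one.

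**Figure D3:**
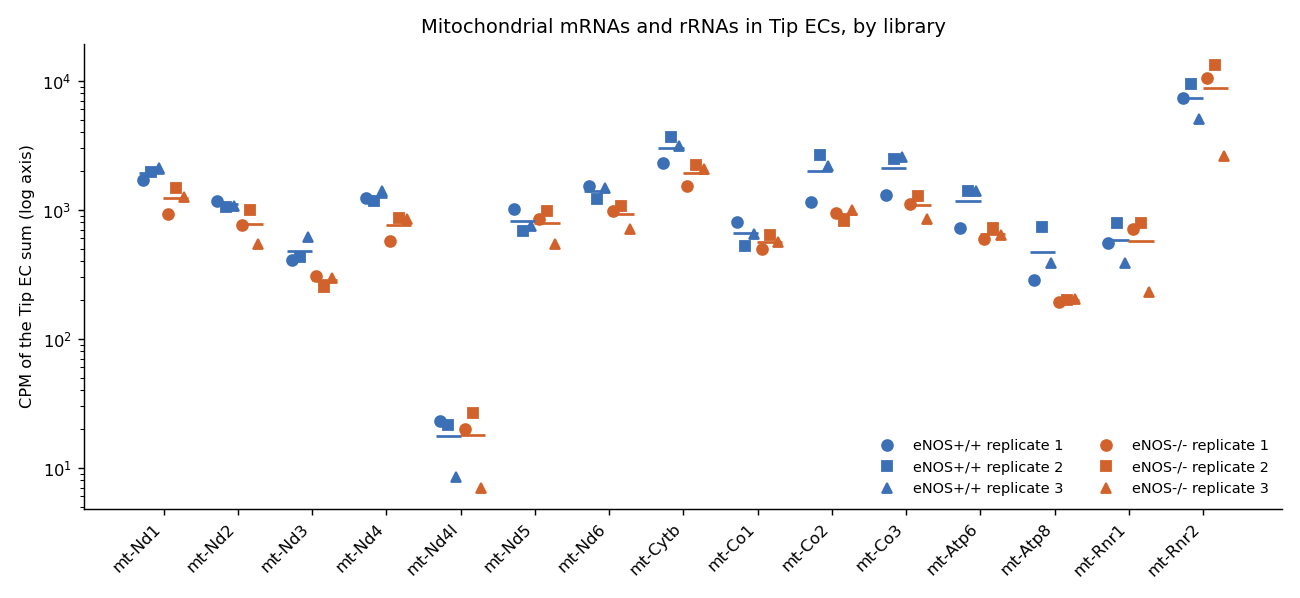
CPM of each mitochondrial mRNA and rRNA in the Tip EC sum of each library, on a log axis. Points are the 3 replicates of each genotype and lines the group means. For mt-Co2 the eNOS-/- points lie at 824 to 996 CPM, below the eNOS+/+ points at 1148 to 2671 CPM, while the eNOS-/- points of mt-Rnr2 spread from 2609 to 13251 CPM around the eNOS+/+ ones.

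In Structural ECs, where 0.0264% of 7577 genes were called and no member was, 12 of 13 mitochondrial mRNAs had negative log2 fold changes, with a median of -0.58 beside 0.0102 for all genes. An unadjusted p under 0.05 was reached by 8 of them against 5.52% of all genes. The 4 without overlap were mt-Nd1, mt-Atp8, mt-Nd4 and mt-Nd6, against 4.79% of all genes lower without overlap. No member was higher without overlap there, as 5.74% of all genes were. In Proliferative ECs 0.0217% of 4607 genes were called and no member was, 11 of 12 mitochondrial mRNAs had negative log2 fold changes, and the median was -0.30 beside 0.0154 for all genes. There mt-Co2 with -0.94 and mt-Co3 with -0.57 had an unadjusted p under 0.05, a share of 6.38% among all genes, and mt-Nd6 was the mRNA that did not overlap, against 5.43% of all genes. DESeq2 called no mitochondrial mRNA in either subtype. In Structural ECs mt-Atp8 passed the threshold with no filter on low counts (-1.12, adjusted p = 0.00512, range over 13 alternative fits 0.00512 to 0.9995). In Proliferative ECs mt-Co2 passed it without eNOS-/- replicate 3 (-1.08, adjusted p = 0.0153, range over 13 alternative fits 0.0153 to 0.9999), in the fit that called 73 genes.

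Whether the subtypes differed in the genotype effect was tested directly, as the difference of the 2 log2 fold changes with the library as a block. Between Proliferative and Tip ECs all 12 mRNAs had a positive difference, that is a less negative genotype difference in Proliferative ECs, with a median of 0.38 beside -0.0085 for all genes. None of 7019 genes was called, 0% with an adjusted p under 0.05, while 7 of the 12 had an unadjusted p under 0.05 against 3.90% of all genes. The difference was 0.48 (SE 0.14, adjusted p = 1 by edgeR) for mt-Nd1 and 0.67 for mt-Atp8. Between Proliferative and Structural ECs the difference was positive for 12 of 12 with a median of 0.28 (all genes 0.0207), and 4 had an unadjusted p under 0.05 against 3.26% of genes. Between Structural and Tip ECs it was positive for 9 of 12, with a median of 0.09 and none of the mRNAs at an unadjusted p under 0.05 (3.92% of genes). In that last comparison mt-Rnr2 differed by 0.51 (SE 0.16, adjusted p = 0.998). In both of these tests, too, 0% of genes were called.

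**Figure D4:**
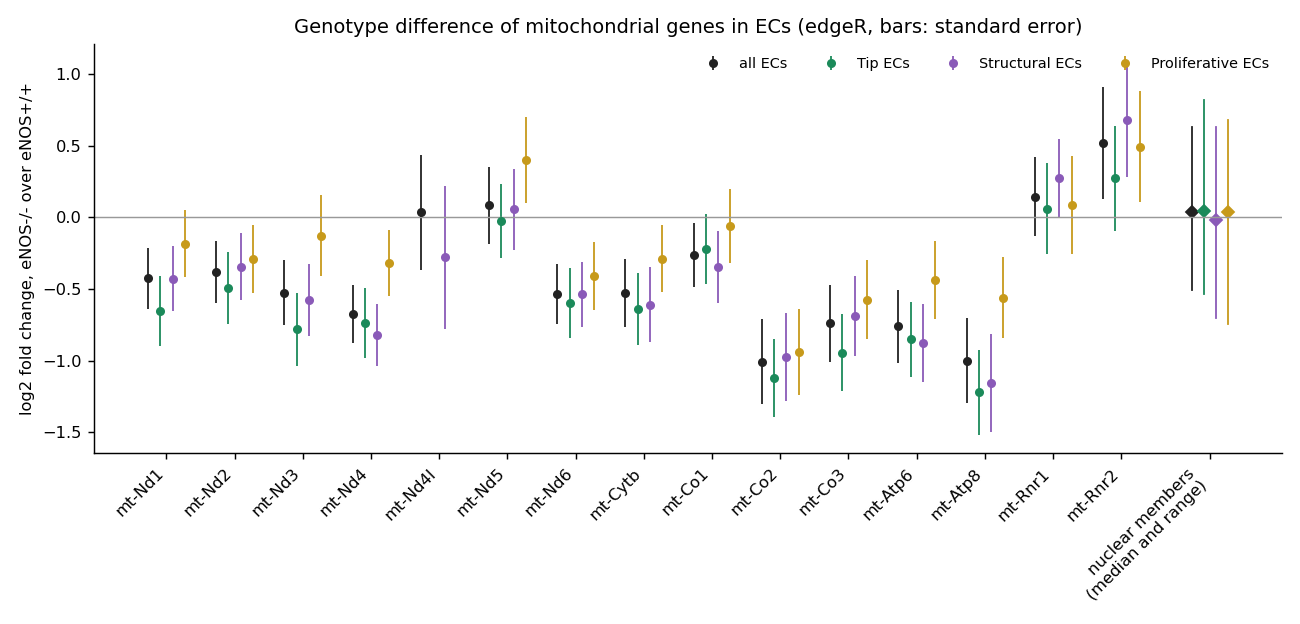
Log2 fold change of eNOS-/- over eNOS+/+ libraries (edgeR, vertical axis) with its standard error, for each mitochondrial mRNA and rRNA in all ECs and in each EC subtype. Diamonds and lines at the right give the median and range of the nuclear members, among them the Atp5o row, which lacks the UMIs of eNOS+/+ replicate 1. In Tip ECs mt-Co2 lies at -1.12 and mt-Atp8 at -1.22, whereas the nuclear median in all ECs is 0.04.

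The nuclear subunits stayed near the value of all genes. In all ECs 74 were tested, 43 with positive and 31 with negative log2 fold changes between -0.51 and 0.63, and the median was 0.04 beside 0.0078 for all genes. None had an adjusted or an unadjusted p under 0.05. The value of 0.63 is that of Atp5o, whose row held no UMIs of eNOS+/+ replicate 1, because they stood under a second row described below. Complex by complex the medians were 0.02 for complex I, 0.08 for complex II, 0.03 for complex III, 0.004 for complex IV and 0.09 for complex V. Within the subtypes the nuclear median was 0.05 in Tip, -0.02 in Structural and 0.04 in Proliferative ECs. In the direct tests the median difference was -0.14 for Structural minus Tip ECs (all genes -0.0241), with 51 of 75 negative. For Proliferative minus Structural ECs it was 0.09 (all genes 0.0207), with 57 of 75 positive. For Proliferative minus Tip ECs it was -0.02 (all genes -0.0085). No nuclear member was called in these tests.

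A few nuclear members had groups that did not overlap in one subtype, and they are named after their values were seen. In Tip ECs, where 4.94% of all genes were higher without overlap, these were Sdhb, the iron-sulfur subunit of complex II, with 92.2, 90.8 and 80.0 CPM in eNOS+/+ and 106, 122 and 168 CPM in eNOS-/- replicates, and Ndufb10 of complex I. In Proliferative ECs, where 5.36% of all genes were higher without overlap, they were Ndufb3 with 130, 126 and 150 against 197, 221 and 192 CPM, Atp5mpl and Cox8a. In Structural ECs Ndufa1, Ndufa12 and Uqcrc1 were lower without overlap, as were 4.79% of all genes. None of these members had an adjusted p under 0.05 with edgeR, as fitted or in the alternatives, or with DESeq2.

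The nuclear member with the most negative log2 fold change in all ECs was Uqcrfs1, the Rieske iron-sulfur protein of complex III, named after its values were seen. It had 173, 143 and 167 CPM in eNOS+/+ and 77.3, 73.0 and 215 CPM in eNOS-/- EC sums, a log2 fold change of -0.51. The eNOS-/- libraries lay on both sides of the eNOS+/+ ones, and without eNOS-/- replicate 3, the library with the mural markers, the log2 fold change was -1.13 (adjusted p = 0.0191, range over 14 alternative fits 0.0191 to 1). The tRNA mt-Tq shared this shape, with 61.8, 62.5 and 62.4 against 18.6, 16.1 and 79.9 CPM, and had a log2 fold change of -1.05, or -1.86 without eNOS-/- replicate 3 (adjusted p = 0.00262, range over 13 alternative fits 0.00262 to 1), and in Structural ECs it passed the threshold in 2 of 13 alternative fits. Without eNOS-/- replicate 3, 78 genes were called in all ECs, against 2 as first fitted. Ndufa1, an accessory subunit of complex I also picked after its values were seen, was the nuclear member lower without overlap in all ECs, with 338, 347 and 325 against 263, 322 and 274 CPM and a log2 fold change of -0.24 (no call in any alternative fit).

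The nuclear members with the highest levels in EC sums were, within each complex, as follows. In complex I, Ndufa4, a small subunit now usually counted with complex IV, had 792 ± 118 CPM (mean and SD over 6 libraries), and Ndufa7 and Ndufa3 had 385 and 360 CPM. In complex II, which links the chain to the citric acid cycle, Sdhb, Sdhc and Sdhd had 128, 108 and 88.3 CPM. In complex III Uqcrh had 528 ± 76 CPM, Uqcrb 419 and Uqcrq 410 CPM. In complex IV Cox6c had 721 ± 71 CPM, Cox6a1 673.5 and Cox6b1 663 CPM. In complex V Atp5j had 755, Atp5h 549 ± 33 and Atp5e 536 CPM. These CPM are not divided by transcript length, so they give no order between genes.

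Among the isoforms, Cox6b2 differed between cell types. Cox6b2, the isoform best known from testis, had 4.0 ± 1.0 CPM in EC sums but 119, 340 and 340 CPM in the Optc+ cells of eNOS+/+ replicates 1 to 3 and 93.2 and 61.6 CPM in those of eNOS-/- replicates 1 and 2. These Optc+ values rest on 54 UMIs in all, so their order between libraries is uncertain. The muscle isoforms were close to the lower limit of the data in ECs: Cox7a1 had 10 UMIs and Cox8b 1 UMI over all ECs, and Cox6a2 was not among the genes counted. The general forms Cox7a2 and Cox8a had 401 and 527 CPM. The 3 genes for subunit c of the ATP synthase, which encode the same mature protein, had 218 (Atp5g1), 151 (Atp5g2) and 269 CPM (Atp5g3) in EC sums. Among related genes that the naming rule left out, Cox4i1 had 916 ± 115 CPM in ECs. Its hypoxia-linked isoform Cox4i2 lay at 0 to 4.9 CPM in 5 EC sums and at 28.7 CPM in eNOS-/- replicate 3, and Ndufa4l2 at 0.4 to 9.1 CPM and 96.2 CPM in the same order. Both were high in Mural cells, with means of 202 CPM for Cox4i2 and 839 CPM for Ndufa4l2, and the EC sum with the highest mural markers is the one in which both were highest.

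Within a library, Proliferative ECs had a larger nuclear share than Tip ECs in 6 of 6 libraries and than Structural ECs in 5 of 6. Their mitochondrial rRNA share was below that of both in every library. These are descriptions, since the subtypes were defined by the authors on the UMIs of the same cells. Over 74 nuclear genes with at least 100 EC UMIs, the CPM in Proliferative ECs exceeded that in Tip ECs in 6 of 6 libraries for 27 and was lower in 6 of 6 for 0, beside 11.3% of 8451 genes higher in 6 of 6, and the median ratio of means was 1.261 (1.023 over all genes). The 27 comprised 12 of 36 complex I genes, 3 of 8 of complex III, 2 of 9 of complex IV, 10 of 17 of complex V and 0 of 4 of complex II. Ndufa8, a complex I subunit of the intermembrane space, stood out with 129, 112, 173, 120, 127 and 175 CPM in Tip ECs of eNOS+/+ 1 to 3 and eNOS-/- 1 to 3, and with 333, 319, 276, 265, 301 and 243 CPM in Proliferative ECs of the same libraries. Its ratio was 2.08 and the ranges did not meet. The ratio was 1.87 for Ndufa5, 1.55 for Atp5g2 and 1.52 for Uqcr10.

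Structural ECs stood between the other subtypes. Proliferative over Structural ECs gave 13 nuclear genes higher in 6 of 6 libraries (7.14% of all genes) and a median ratio of 1.092 (0.983 over all genes), and 2 were lower in all, Ndufa6 with a ratio of 0.784 and Uqcrh with 0.809. Tip over Structural ECs gave 0 higher and 15 lower in 6 of 6 (9.74% of all genes lower), with a median ratio of 0.874 (0.942 over all genes), among them Ndufa8 with 0.616, Ndufa5 with 0.701 and Ndufa7 with 0.720.

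The mitochondrial rRNAs were lowest in Proliferative ECs. In these cells mt-Rnr2 had 3682, 7800 and 3218 CPM in eNOS+/+ and 7772, 10538 and 1867 CPM in eNOS-/- replicates, against 6538, 9107, 4240, 9591, 18017 and 4556 CPM in Structural ECs of the same libraries. Both rRNAs were lower in Proliferative than in Structural ECs in 6 of 6 libraries (6.89% of all genes), and lower than in Tip ECs in 6 of 6 (9.21%). The ratio of means over Structural ECs was 0.699 for mt-Rnr1 and 0.67 for mt-Rnr2, and over Tip ECs 0.721 and 0.722. Of the 13 mRNAs 4 were lower in Proliferative than in Structural ECs in 6 of 6 libraries, namely mt-Co1 with a ratio of 0.715, mt-Nd5, mt-Nd6 and mt-Co3. Tip ECs exceeded Structural ECs in 6 of 6 libraries for mt-Co2 with a ratio of 1.20 and mt-Nd6 with 1.16, a pattern held by 7.08% of all genes.

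**Figure D5:**
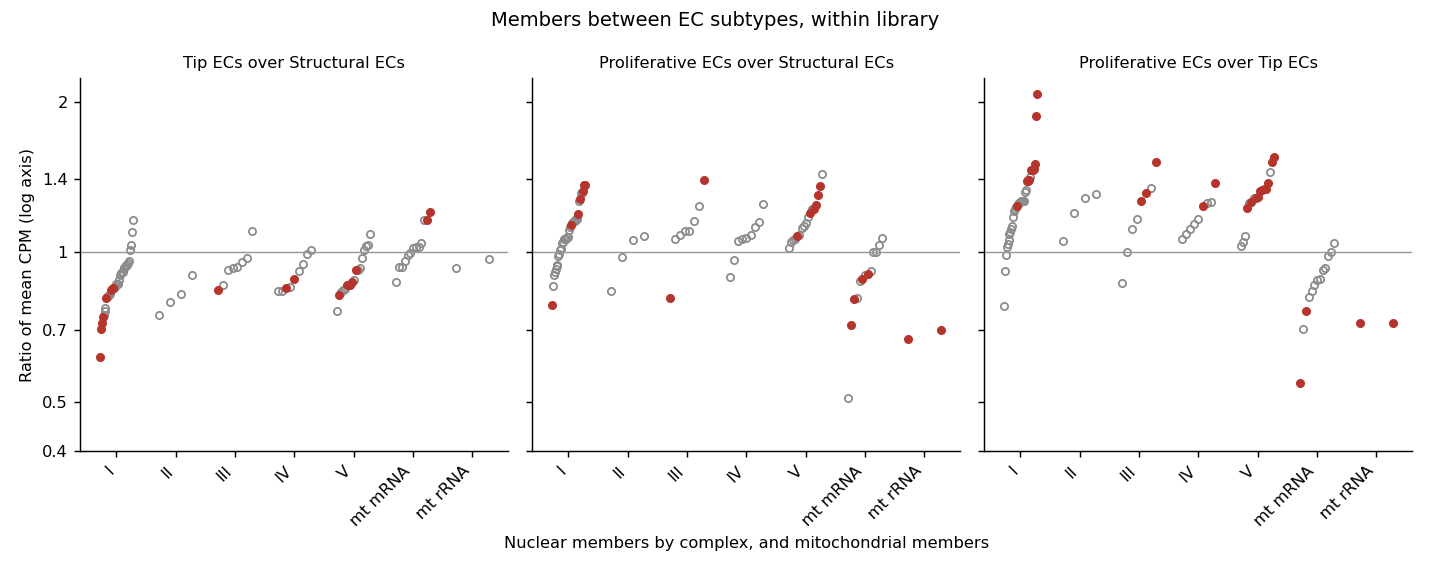
Ratio of mean CPM between EC subtypes (log axis) for members with at least 100 EC UMIs, by complex for nuclear members and by class for mitochondrial ones. Filled red points had the same direction in 6 of 6 libraries, open grey points did not. Nuclear members lie mostly above 1 for Proliferative over Tip ECs (median 1.261) and mostly below 1 for Tip over Structural ECs (median 0.874), while the rRNAs lie below 1 for both ratios of Proliferative ECs.

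Over the other cell types, Neurons and Optc+ cells had the largest mitochondrial mRNA shares among types with several libraries. Neurons had 2.26, 4.42 and 3.34% in eNOS+/+ and 2.37, 1.92 and 2.03% in eNOS-/- libraries, above the ECs of the same library in 6 of 6. The share of eNOS+/+ replicate 2 came from 11 Neurons and that of eNOS-/- replicate 3 from 10. The Neuron sum of eNOS-/- replicate 3 also held 6695 CPM of the mural markers, against 0 to 376 CPM in the other libraries. Its neuron markers gave 4519 CPM. The part of these mural UMIs in the Neuron values here and below was not tested. The smallest Neuron sum held 5178 UMIs. Optc+ cells, named in the annotation for the opticin gene, had 3.59, 3.17 and 3.71% against 2.86 and 2.71%, above ECs in 5 of 5, and the spreads of both types overlapped. Mural cells had 1.73% ± 0.33 (SD, n = 5) for the mRNAs and 3.10% ± 0.27 for the nuclear members, both above ECs in 5 of 5. Rods, which the known biology would place among the mitochondria-rich cells, had mRNA shares of 1.09 and 2.71% in eNOS+/+ replicates 1 and 3 and 1.36, 0.87 and 1.04% in the eNOS-/- replicates. Their rRNA share was 0.83 and 1.56% against 3.06, 5.01 and 0.99%, so rRNA UMIs exceeded mRNA UMIs by a ratio of 5.75 in eNOS-/- replicate 2. The libraries used held between 26 and 751 rods, with medians of 250 to 425 UMIs per rod. The Rod sum of eNOS+/+ replicate 3 also held 3286 CPM of the EC markers, against 641 to 1392 CPM in the other Rod sums used. Cones, with 50 cells in all, reached 10 cells in 1 library and were not compared.

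Outside ECs, too, the mitochondrial mRNAs mostly had lower values in eNOS-/- libraries, though by little in Immune cells. The median log2 fold change of the tested mRNAs was -0.70 in Rods with 12 of 12 negative, -0.66 in Neurons with 11 of 12, -1.01 in Neuroglia with 11 of 11, -0.36 in Mural cells with 8 of 12, -0.30 in Optc+ cells with 11 of 12 and -0.05 in Immune cells with 7 of 11. Over all genes tested the medians were -0.0187 in Rods, 2e-04 in Neurons, -0.0616 in Neuroglia, 0.0809 in Mural cells, -0.0032 in Optc+ cells and 0.0512 in Immune cells. No mitochondrial mRNA had an adjusted p under 0.05 in any of them with edgeR or DESeq2, and the shares of all genes called were 0% in Neurons, Neuroglia, Immune and Mural cells, 0.0320% in Rods and 2.06% in Optc+ cells. At an unadjusted p under 0.05 there were 3 lower mRNAs in Rods (1.19% of all genes tested), 2 in Neurons (4.18%), 5 in Neuroglia (5.93%), 2 in Mural cells with 1 higher (5.78%), and none in Optc+ (11.1%) or Immune cells (4.53%). In Neuroglia mt-Rnr2 passed the threshold in 2 of 5 alternative fits, at 1.91 with no filter (adjusted p = 0.00229) and 1.33 with the replicate block (adjusted p = 0.00636), with a range of 0.00229 to 0.5243. The nuclear members had medians of 0.13 in Rods, 0.17 in Neurons, -0.02 in Neuroglia, 0.14 in Mural cells, 0.03 in Optc+ cells and -0.46 in Immune cells. The cells of one library share their preparation, so the cell types are not independent of each other. These fits rest on the libraries with at least 10 cells of the type, eNOS+/+ and eNOS-/- in that order: 2 and 3 for Rods, 3 and 3 for Neurons, 3 and 2 for Neuroglia, 2 and 3 for Immune cells, 2 and 3 for Mural cells, and 3 and 2 for Optc+ cells.

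The same libraries were high in several types. For mt-Co2 Neurons had 1817, 4249 and 2730 CPM in eNOS+/+ and 1488, 953 and 2510 CPM in eNOS-/- replicates. Neuroglia had 752, 3016 and 2032 CPM against 626 and 367 CPM for the same gene, and Mural cells 1985 and 1909 CPM in eNOS+/+ replicates 2 and 3 against 975, 638 and 1016 CPM. As in ECs, eNOS+/+ replicates 2 and 3 held the 2 highest mt-Co2 values in each of these types, eNOS+/+ replicate 1 lay lower where it had enough cells, and eNOS-/- replicate 2 was the lowest. The eNOS+/+ replicate 2 values came from only 11 Neurons, 10 Neuroglia and 30 Mural cells. The eNOS-/- replicate 3 value of Neurons came from 10 cells, whose sum held the many mural UMIs given above. The direct test of Neurons against all ECs gave 7 mitochondrial mRNAs with a positive and 5 with a negative difference of the genotype effect, a median of 0.04 beside 0.1619 for all genes, and none at an unadjusted p under 0.05 against 3.55% of all genes. Of all genes in that test 0% were called.

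Apart from alternative fits, the single member called in any comparison was Atp5o, the OSCP subunit of the ATP synthase, in Rods (log2 fold change 3.90, SE 0.90, adjusted p = 0.0422). Its row held 0 CPM in eNOS+/+ replicate 1 and 190 CPM in replicate 3, against 333, 265 and 1253 CPM in eNOS-/- replicates, and the eNOS+/+ libraries lay below. However, a second row, Atp5o.1, held 173 CPM in Rods of eNOS+/+ replicate 1 and 0 in the other libraries, and in the EC sums, too, UMIs stood under the second row in that library alone. With no filter on low counts this second row was called lower in eNOS-/- libraries in all ECs, each EC subtype, Rods and Neurons. GENCODE holds 2 overlapping genes of this name. With both rows summed the log2 fold change in Rods was 1.12 and the call was lost (adjusted p = 0.9999, range over 5 alternative fits 0.0246 to 1), and the summed EC levels were 253, 353 and 253 CPM against 273, 304 and 369 CPM.

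Mature tRNAs carry no poly(A) tail, and 4 of the 19 mitochondrial tRNAs gave nearly all tRNA UMIs. Over all cells mt-Ts1 held 72.0% of tRNA UMIs with 4459 UMIs, mt-Te 12.2%, mt-Tq 7.8% and mt-Tp 5.1%. All 4 lie on the minus strand, opposite the strand of the rRNAs and of all mRNAs but mt-Nd6. In EC sums mt-Ts1 had 424, 469 and 582 CPM in eNOS+/+ and 409, 322 and 496 CPM in eNOS-/- replicates, a log2 fold change of -0.28, and mt-Te had 0.07. The sequences of mt-Ts1 (chrM:6870-6938) and mt-Tq (chrM:3772-3842), both minus strand, are shown with capitals for the bases that overlap a gene of the other strand: 3 bases of mt-Co1 for mt-Ts1 and 3 bases of mt-Ti for mt-Tq. Since the use of strand in the counting is not stated, the values of these tRNAs are uncertain.
mt-Ts1: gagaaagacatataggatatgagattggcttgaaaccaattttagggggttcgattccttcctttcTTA
mt-Tq: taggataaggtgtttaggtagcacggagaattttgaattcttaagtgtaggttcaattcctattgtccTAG

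A promoter motif that the naming rule did not use was found in some nuclear members. NRF1 (nuclear respiratory factor 1) is a transcription factor known to act on many genes of the chain, and its motif (GCGCA, then 1 base of any kind, then GCGC) was searched on both strands in RefSeq promoters of GRCm38.p6, from 250 bases before to 50 after the start. It was present in 16 of the 66 nuclear members with a promoter entry (24.2%) and in 1293 of 27025 promoters in all (4.78%). By complex it was in 7 of 32, 2 of 3, 1 of 5, 1 of 12 and 5 of 14 promoters of complexes I to V. Mitochondrial ribosomal protein genes held it in 13 of 68 promoters (19.1%). Pieces of 3 of these promoters, from complexes IV and V, are shown with the motif in capitals: Cox6a1 (chr5:115349086-115349145, minus strand, motif beginning 162 bases before the start), Atp5h (chr11:115420026-115420085, minus strand, 141 bases) and Atp5k (chr5:108434415-108434474, minus strand, 50 bases). A match of letters is no proof of binding, which was not measured here.
Cox6a1: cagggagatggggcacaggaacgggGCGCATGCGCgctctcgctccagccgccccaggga
Atp5h: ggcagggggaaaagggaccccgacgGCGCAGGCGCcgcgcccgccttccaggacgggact
Atp5k: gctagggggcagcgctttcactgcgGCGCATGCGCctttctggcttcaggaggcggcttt

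Other genes of mitochondrial function, taken from lists beside the members, had no called gene in ECs. Of 43 assembly factors of the chain 40 were tested, 21 positive and 19 negative, with a median log2 fold change of 0.004, beside 0.0078 for all genes. The 75 tested mitochondrial ribosomal protein genes of 77 divided into 38 and 37 with a median of 0.02, and the 18 citric acid cycle genes into 9 and 9 with a median of 0.008. Of 25 genes for the upkeep and transcription of mitochondrial DNA 19 were tested, 15 of them positive and 4 negative, with a median of 0.20. The 8 tested regulators of mitochondrial biogenesis, of 12, had a median of -0.04, and 7 of 9 subunit-related genes outside the naming rule had 0.13. None of these genes had an adjusted p under 0.05 in all ECs with edgeR or DESeq2. At an unadjusted p under 0.05 there were 3 higher and 3 lower assembly factors, 2 lower ribosomal protein genes, and 1 higher gene in each of the last 3 lists, against 5.78% of all genes tested.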

How the data were processed

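Drop-seq libraries of CD31-enriched P14 OIR retinas were sequenced, demultiplexed with bcl2fastq and quantified by the authors with kb-python on GRCm38 (mm10); the annotation is not given in the sources used here. The deposited table holds raw UMI counts per gene and cell, and the authors deposited with it each cell's type, assigned with Seurat 3, and its percent of mitochondrial counts. They kept cells with at least 100 genes and at most 10% mitochondrial UMIs. The deposited doublet column calls all 8944 cells singlets, and no doublet caller was run here. Cells were given to libraries by the annotation's replicate column. For the 613 cells of eNOS+/+ replicate 2 a second library column names eNOS+/+ replicate 1 instead. EC numbers are those of the deposited cell type labels and differ from the totals in the study's text. Groups follow the labels; p-values measure the spread between pooled replicates.

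Members and lists were chosen with earlier results of these data known. Counts were summed per cell type and replicate (at least 10 cells). Genotypes were compared over all genes with edgeR 4.0.16 (TMM, filterByExpr, quasi-likelihood test, Benjamini-Hochberg) in R 4.3.3 and, as an alternative, DESeq2 1.42.0. Other alternatives were RLE scaling, no filter, a replicate block, no mitochondrial rows, cells with at least 500 UMIs or at most 5% mitochondrial UMIs, Atp5o rows summed (added after the data were seen) and each replicate left out. Between subtypes the library was a block. Shares and CPM were summarised with Python 3.11.15 and pandas 2.3.3 and not tested. Scripts were tested on simulated data.

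Named were the mitochondrial mRNAs and rRNAs, the 3 tRNAs with most UMIs, the 3 nuclear members per complex with the highest EC mean, called members, listed isoforms, the 5 members with the smallest unadjusted p in all ECs, and 4 related genes for level only. Others were chosen after their values were seen.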

Additional observations from a re-analysis of the deposited data

How the results depend on the processing

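The direction of the mitochondrial mRNA median in all ECs held in every alternative that kept the mitochondrial genes, and the calls over all genes did not. With no filter on low counts the genes called numbered 84 in all ECs, 8 in Tip, 74 in Structural and 10 in Proliferative ECs, 1 in Neurons, 3 in Neuroglia, 8 in Immune and 2 in Mural cells, against 2, 1, 2, 1, 0, 0, 0 and 0. Cells with at least 500 UMIs gave 1, 2 and 0 in all, Tip and Structural ECs, and cells with at most 5% mitochondrial UMIs gave 1 in all and 0 in Structural ECs. DESeq2 called 2 in Tip ECs, 0 in Rods and 14 in Optc+ cells (23 with edgeR), and summing the Atp5o rows left 0 in Rods. The cause was not tested. Leaving out 1 replicate gave 0 to 78 calls in all ECs, 0 to 25 in Tip, 0 to 28 in Structural and 0 to 73 in Proliferative ECs, each highest without eNOS-/- replicate 3.

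Whether the replicate numbers pair the libraries is not stated. The deviations of same-numbered libraries from their group means had correlations of 0.132, -0.0702 and 0.1141. With 3 libraries in a group these values cannot decide the question. With the replicate block 11 genes were called in Structural and 3 in Proliferative ECs, 0 in Rods, 1 in Neuroglia, 2 in Immune cells, 1 in Mural cells and 2 in Optc+ cells, and the log2 fold changes of mt-Nd4l in all ECs (-0.10) and mt-Rnr1 in Tip ECs (-0.0935) turned negative.

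Other signs that turned belong to small values. In all ECs mt-Nd4l was at -7e-04 in cells with at least 500 UMIs. In Tip ECs mt-Nd5 was at 0.0224 with no filter and 0.059 in cells with at most 5% mitochondrial UMIs. With 1 replicate left out, the log2 fold changes in all ECs ran from -0.35 to 0.36 for mt-Nd4l, -0.12 to 0.35 for mt-Nd5, -0.0921 to 0.50 for mt-Rnr1 and -0.031 to 0.28 for mt-Te, and in Tip ECs from -0.21 to 0.17 for mt-Nd5, -0.22 to 0.39 for mt-Rnr1 and -0.15 to 0.70 for mt-Rnr2. The median EC held 418 to 1097.5 UMIs. The simulated data that checked the scripts had a preset spread between libraries, and how small a change the real spread would let show was not tested.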
